A study of Mus musculus with 9 samples.

Results

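Hind paw skin was compared with lumbar spinal cord in RNA sequencing libraries from mice given paclitaxel and a blocker of the lymphotoxin beta receptor. The comparison took all 3 paw and all 3 spinal cord libraries by their tissue labels, 6 of the 9 libraries of the series. The other 3 libraries, from dorsal root ganglia, entered the model to help estimate the spread. They also entered the scaling and the filter that removed genes of few reads. With them 16091 genes were tested, against 15684 with the 6 paw and cord libraries alone. Every animal was a male C57 mouse of 8 to 12 weeks. Each received 2 intraperitoneal injections of paclitaxel at 2 mg/kg, 1 day apart. Paclitaxel is a chemotherapy drug that binds microtubules and can injure sensory nerves. Each mouse also received the LTβR antagonist, 15 µg by the intraplantar and 15 µg by the intrathecal route. Sample titles place the antagonist at 1 and 4 days, while the series text places it between the paclitaxel injections and 1 day after, and the 2 statements were left as they stand. Skin punches of the hind paw were taken 6 days after the second paclitaxel injection, as was cord from lumbar levels 3 to 5. Mice given IgG in place of the antagonist are not analysed here, so each difference below is between 2 tissues that had the same treatment, and no effect of either agent can be read from it. Nothing in the labels says that the 3 libraries of a tissue came from 3 separate mice. All p-values therefore measure the spread between libraries of a tissue, the ganglia included, which may in part be technical.

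Skin of the paw is a stratified epithelium whose cells divide in a basal layer, move outward, exchange one set of keratins for another and end as dead, cross-linked envelopes sealed by lipids. Below it lie a collagen-rich dermis, vessels, sweat glands, nerve endings and immune cells, and a full-thickness punch can include the small muscles of the foot. The lumbar cord receives the sensory axons of the hind limb and holds excitatory and inhibitory interneurons, motor neurons, astrocytes, ependymal cells, microglia and the oligodendrocytes that wrap central axons in myelin.

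Both tissue labels were checked against defining markers. The basal keratins Krt5 and Krt14, the suprabasal keratins Krt1 and Krt10, the envelope protein gene Lor and the basal transcription factor gene Trp63 were all higher in paw. The astrocyte genes Gfap and Aqp4, the oligodendrocyte genes Mog, Mobp and Olig1, the inhibitory neuron genes Slc32a1 and Gad2, the cholinergic gene Chat and the terminal protein gene Snap25 were all higher in cord. Filaggrin (Flg) had no matching row. The glycine transporter gene Slc6a5, a marker of cord inhibitory neurons, had 1.65, 1.21 and 16.9 CPM (reads scaled to a common library size) in the cord libraries and 0 reads in paw. It was not called by edgeR (adjusted p 0.073), and cord replicate 3 held 295 of its 354 cord reads. With the 6 paw and cord libraries alone its adjusted p was 0.033.

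Some libraries stood apart within their tissue, and these values bear on several results below. Reads in genes ran from 15537545 to 16757430 in paw and from 16952637 to 21540977 in cord. Reads that mapped to several places made up 46.9% to 47.6% of all reads in paw and 33.1% to 35.5% in cord. Genes with near-identical copies are therefore undercounted, and Gapdh, usually abundant, had only 1.78 to 2.95 CPM in all 6 libraries. Cord replicate 1 was high in marrow neutrophil and red cell genes, with a summed level of 1540 CPM against 330 and 436 CPM in cord replicates 2 and 3. It was also high in dividing-cell genes. Cord replicate 3 was high in peripheral myelin genes: Prx, periaxin of peripheral myelin, had 341, 357 and 1105 CPM in cord. Paw replicate 1 was the highest in keratin genes, with a summed level of 81647 CPM against 58178 and 60114 CPM in paw replicates 2 and 3. Paw replicate 3 was the highest of the paw libraries in neural genes. Over 35 neuronal, astrocyte and matrix genes at 200 CPM or more in cord and under 10 CPM in paw, its summed level was 0.568% of the cord mean, against 0.407% and 0.374% in paw replicates 1 and 2, and 30 of these genes were highest in it. In the other direction, 27 keratin, envelope and desmosome genes, chosen for 500 CPM or more in paw and under 50 CPM in cord, had a median cord level of 0.0505% of their paw level, from 0.0218% for Lce1c to 0.425% for Sbsn. The part of such traces in the folds was not tested. Fold changes that leaving out 1 library moved by more than 1.5-fold are given with and without it.

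Promoters of the genes that set the 2 tissues apart differed in a simple feature, the TATA box, the AT-rich element that helps to position the start of transcription. The 60 bases before the annotated start are shown for the most highly expressed epidermal and muscle genes that hold the letters TATAAA near their start, and for 3 genes of large difference in cord. They were chosen after the values were seen. Sequences are from RefSeq on GRCm38.p6, 5′ to 3′ on the gene's own strand, and capitals mark TATAAA. The first 5 genes were higher in paw.
Krt10, chr11:99389365-99389424, minus strand: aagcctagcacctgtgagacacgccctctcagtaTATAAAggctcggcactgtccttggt
Hrnr, chr3:93319689-93319748, plus strand: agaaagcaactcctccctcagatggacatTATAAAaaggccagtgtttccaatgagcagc
Krtdap, chr7:30787845-30787904, plus strand: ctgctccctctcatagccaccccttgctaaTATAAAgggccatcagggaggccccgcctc
Lor, chr3:92083143-92083202, minus strand: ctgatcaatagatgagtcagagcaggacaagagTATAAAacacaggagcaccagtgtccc
Myh1, chr11:67200042-67200101, plus strand: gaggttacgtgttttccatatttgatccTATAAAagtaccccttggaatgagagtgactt
The last 3 genes were higher in cord, and the same window holds no TATAAA.
Syt1, chr10:109010976-109011035, minus strand: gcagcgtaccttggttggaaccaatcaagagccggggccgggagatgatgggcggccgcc
Ermn, chr2:58052865-58052924, minus strand: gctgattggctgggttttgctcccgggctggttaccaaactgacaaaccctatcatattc
Gad1, chr2:70562069-70562128, plus strand: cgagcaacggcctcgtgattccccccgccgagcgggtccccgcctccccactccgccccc

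In these promoters the first base of TATAAA lay 26, 31, 30, 27 and 32 bases before the start of Krt10, Hrnr, Krtdap, Lor and Myh1. A promoter was matched for 12530 tested genes, each from 250 bases before to 50 bases after the start. TATAAA on the gene's own strand with its first base about 40 to 20 bases before the start stood in 1.92% of all of them. The share was 4.41% among genes called at least 2-fold higher in paw, 1.30% among genes at least 2-fold lower in paw, and 1.06% among genes not called. Among genes at least 64-fold higher in paw it was 12.9%, and among those at least 64-fold lower 1.38%. It was 38.5% of 26 cornified envelope promoters, 27.8% of 18 keratin promoters and 10.7% of 28 skeletal muscle promoters, 4.76% of 21 astrocyte promoters, and 0 of 19 synaptic vesicle and 15 oligodendrocyte promoters. Promoters of one gene family share ancestry and are not independent.

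Other short motifs were searched over the whole window on both strands. At the 2-fold cut most had similar shares among genes higher and lower in paw. CAGCTG stood in 17.6% and 17.6%, GGGCGG in 57.0% and 58.0%, and CCAAT in 36.5% and 37.8%. TGAGTCA stood in 6.35% and 3.21%. No motif of this set contains another. TGAGTCA, the letters bound by AP-1 factors such as Fos and Jun, stood in 26.9% of the cornified envelope promoters, 0% of the 18 keratin promoters, 12.9% of those at least 64-fold higher in paw and 2.75% of those at least 64-fold lower, against 3.99% of all. CAGCTG, an E-box of the kind that MyoD binds, stood in 50.0% of the skeletal muscle promoters and 16% of all. It also stood in 26.3% of synaptic vesicle and 26.7% of oligodendrocyte promoters. GGGCGG, a GC box, stood in 84.2% of synaptic vesicle promoters, 60.8% of all, 50.9% of those at least 64-fold lower in paw and 28.0% of those at least 64-fold higher. Among other cord lists it stood in 46.7% of oligodendrocyte and 42.9% of astrocyte promoters. An observed to expected CpG ratio above 0.6, a mark of CpG islands, was met by 65.0% of all promoters, 69.2% of those not called, 45.3% of those at least 64-fold lower and 12.6% of those at least 64-fold higher in paw. These shares are descriptions of letters, and a match is not a bound site.

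A gene was called at an adjusted p under 0.05, from edgeR's quasi-likelihood method with Benjamini-Hochberg adjustment over all 16091 genes tested. Log2 fold changes are paw minus cord, between 3 paw and 3 cord libraries, so positive values are higher in paw. Their standard error (SE) comes from the fit to all 9 libraries. It is the absolute log2 fold change divided by the square root of the F statistic. The SE and p-value of a gene therefore include its spread among the ganglion libraries. There Ckm had 84.3, 132 and 5.40 CPM and Eno3 33.0, 52.2 and 12.5 CPM. Of all genes tested, 81.6% were called, 39.9% higher and 41.7% lower in paw. A change of 2-fold or more was called for 54.4%, of which 26.2% of genes tested were higher and 28.2% lower. The 3 paw and 3 cord libraries did not overlap for 83.5% of genes. The median log2 fold change over all genes was -0.03. Counts of list members below are to be read against these shares, since a call alone is the rule here and not the exception. Large folds were far rarer: 701 genes were at least 64-fold higher in paw and 876 at least 64-fold lower. In bulk tissue, fewer cells of a type and less RNA per cell cannot be told apart.

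**Figure D1:**
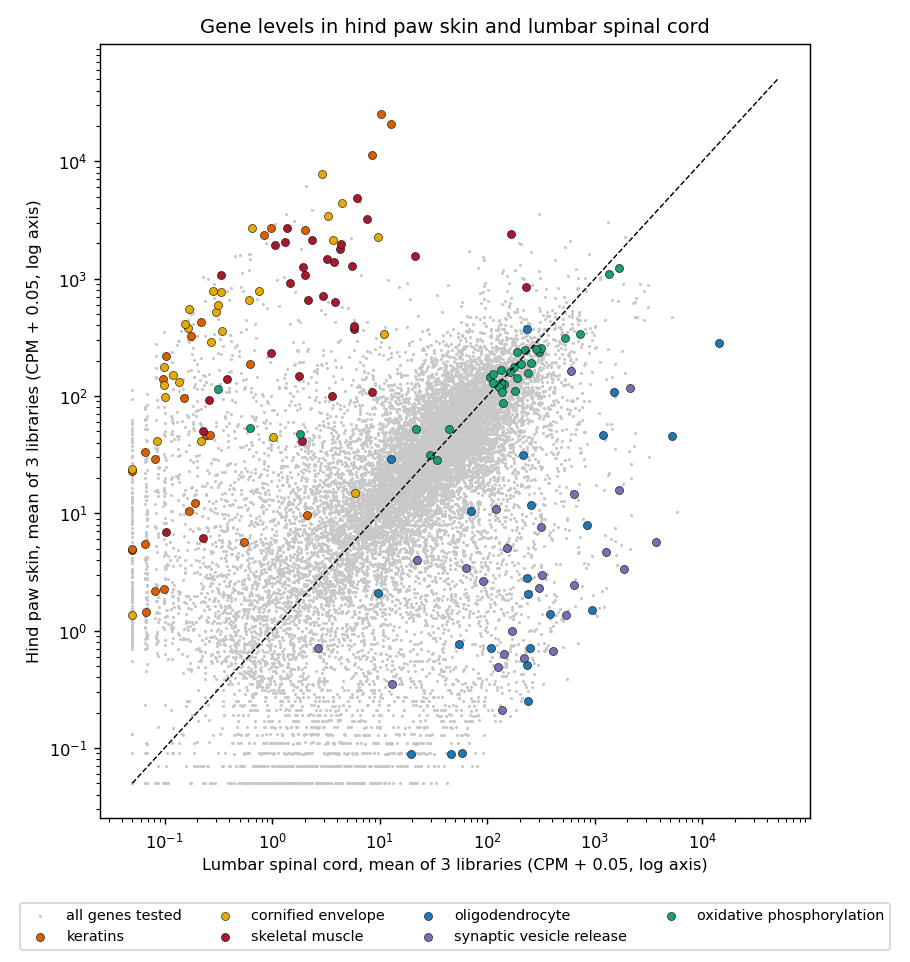
Mean level of each of 16091 tested genes in spinal cord (x axis) and paw (y axis), in CPM + 0.05 on log axes, with 6 gene groups coloured and the line of equal level dashed. Most keratin, cornified envelope and skeletal muscle genes lie far above the line, synaptic vesicle genes below it, most oligodendrocyte genes below it, and most oxidative phosphorylation genes near it.

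Keratins are the intermediate filaments of epithelial cells, and different pairs mark each layer of the skin. All 27 tested keratins were higher in paw, with a median log2 fold change of 8.82 when genes without a cord read are set at their lower bound. The 4 others (Krt13, Krt20, Krt76 and Krt77) had too few reads to test. Krt10, the suprabasal type I keratin, had 25791, 17216 and 18919 CPM in the paw libraries and 14.3, 13.3 and 10.7 CPM in the cord libraries, a log2 fold change of 10.66 ± 0.32 (SE, edgeR adjusted p = 5.9e-11). Krt2, a keratin of the upper layers, had 28584, 24277 and 23550 CPM in paw and 10.3, 11.2 and 9.07 CPM in cord, a log2 fold change of 11.29 ± 0.37. Paw replicate 1 was the highest of the paw libraries for both, and no paw library came near a cord library. Krt9, the keratin of palm and sole epidermis, had 3688, 2085 and 2021 CPM in paw and 2.50, 2.24 and 1.09 CPM in cord. The basal pair was more even across the paw libraries: Krt5 had 2533, 2109 and 2362 CPM against 0.900, 0.933 and 0.517 CPM in cord, and Krt14 had 2848, 2579 and 2648 CPM against 0.350, 1.03 and 1.38 CPM. Krt15, a basal and hair follicle stem cell keratin, had 11001 reads over the paw libraries and 3 over the cord libraries, a ratio of 4326 (exact 95% counting interval 1480 to 20980), and its fitted log2 fold change of 11.90 became 12.85 without cord replicate 3. Krt17, a keratin of hair follicle and injured epidermis, had 6894 against 3 reads, a ratio of 2711 with an interval of 927 to 13150. All 3 cord reads of Krt17 were in cord replicate 2, and its fitted log2 fold change of 11.23 became 14.36 without it. Intervals of this kind cover counting error only.

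Hair keratins were low and uneven in paw. Krt25, of the inner root sheath, had 18, 4.63 and 6.48 CPM in paw against 1.75, 2.75 and 1.61 CPM in cord, and Krt71, its type II partner, had 18.5, 5.68 and 7.24 CPM against 0.150, 0.0933 and 0.115 CPM. In both, paw replicate 1 was about 3 times the others. Without paw replicate 1 the log2 fold change of Krt25 went from 2.24 to 1.43 and that of Krt71 from 6.38 to 5.68.

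The cornified envelope is the cross-linked protein shell of the dead outer cells. All 29 tested members were higher in paw, with a median log2 fold change of 10.3 at the bound. Krtdap, a secreted differentiation product of keratinocytes, had 2657, 2853 and 2609 CPM in paw and 0.800, 0.373 and 0.631 CPM in cord, a log2 fold change of 12.13 ± 0.32 (edgeR adjusted p = 2.4e-11). Hrnr, a filaggrin-like S100 fused protein, had 8676, 8220 and 6578 CPM against 3.10, 2.89 and 2.53 CPM. Lor, the main envelope protein, had 2059, 2284 and 2095 CPM against 4.15, 3.97 and 2.81 CPM, a log2 fold change of 9.19 ± 0.23. These 3 genes varied by less than 1.4-fold among the paw libraries. The transglutaminases that cross-link the envelope moved with it: Tgm3 had 447, 294 and 321 CPM in paw and Tgm1 319, 293 and 255 CPM, each under 0.5 CPM in every cord library. Asprv1, the protease that processes profilaggrin, had 3913, 3454 and 2860 CPM against 3.95, 3.08 and 2.64 CPM. Sprr1a, a small proline-rich envelope protein, was the exception in spread, with 0.05, 0.0467 and 2.81 CPM in cord. Its log2 fold change of 5.63 went to 9.70 without cord replicate 3 and to 5.03 without cord replicate 2.

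Desmosomes rivet keratinocytes together and hemidesmosomes anchor them to the basement membrane. Of 19 tested members 18 were higher in paw and none lower, with a median log2 fold change of 9.43. Dsp, the plakin that ties desmosomes to keratin, had 5205, 3380 and 2875 CPM in paw and 1.90, 2.66 and 2.30 CPM in cord, a log2 fold change of 10.70 ± 0.38. Dsg1a, the desmoglein of the upper epidermis, had 2489, 1895 and 1639 CPM against 1.00, 0.840 and 0.631 CPM, a log2 fold change of 11.23 ± 0.32. Col17a1, the hemidesmosome collagen, had 703, 668 and 614 CPM against 0.400, 0.420 and 0.230 CPM. Dsg2, the desmoglein of simple epithelia and heart, changed far less, with 33.2, 28.3 and 28.3 CPM against 2.15, 1.59 and 2.12 CPM. The hemidesmosome integrin subunit gene Itgb4 had 283, 262 and 233 CPM in paw against 101, 102 and 161 CPM in cord, a log2 fold change of 1.10 ± 0.20. The plakin gene Dst, which has epithelial, muscle and neuronal forms, was not called: it had 369, 427 and 352 CPM in paw and 439, 445 and 523 CPM in cord.

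Lipids and proteases finish the barrier. Of 25 tested genes of epidermal barrier lipids 23 were higher in paw and 2 lower, with a median log2 fold change of 5.28. Elovl4, which makes very long fatty acids, had 1646, 1428 and 1277 CPM in paw and 92.2, 96.9 and 87.5 CPM in cord, a log2 fold change of 3.97 ± 0.13. Alox12b, a lipoxygenase of the barrier, had 531, 420 and 370 CPM against 1.45, 1.82 and 1.78 CPM, a log2 fold change of 8.03 ± 0.19. Pnpla1, which makes acylceramides, had 112, 89.9 and 80.7 CPM in paw and no cord read, at least 1844-fold higher when cord is set at 3 reads over its libraries. Abca12, the lipid transporter of lamellar granules, had 9279 reads in paw and 3 in cord, a ratio of 3648 with an interval of 1248 to 17700, and its fitted log2 fold change of 11.66 became 12.47 without cord replicate 2. Degs2 and Aldh3a2 were the members lower in paw, and Aldh3a2, a fatty aldehyde dehydrogenase, had 47.5, 52.0 and 47.1 CPM against 79.6, 80.9 and 85.8 CPM.

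Among skin proteases and their inhibitors, 20 of 22 were higher in paw and 2 lower. Spink5, the inhibitor that restrains skin kallikreins, had 1312, 927 and 859 CPM in paw and 0.200, 0.0467 and 0.287 CPM in cord, a log2 fold change of 12.51 ± 0.44. Klk7, a kallikrein that cuts corneodesmosomes, had 613, 602 and 527 CPM against 0.300, 0.327 and 0.172 CPM, a log2 fold change of 11.03 ± 0.19. The kallikrein family was split between the tissues. Klk6, a kallikrein of oligodendrocytes, had 2.81, 2.78 and 2.53 CPM in paw and 73.1, 79.0 and 54.4 CPM in cord, a log2 fold change of -4.67 ± 0.18.

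Transcription factors of skin and limb followed the structural genes, with 27 of 28 higher in paw, none lower and a median of 5.22 at the bound. Trp63, the p53 relative required for stratified epithelium, had 270, 235 and 221 CPM in paw and 7.20, 5.92 and 9.36 CPM in cord, a log2 fold change of 5.02 ± 0.17. Ehf, an epithelial ETS factor, had 157, 129 and 134 CPM against 0.1, 0.140 and 0.0574 CPM, a log2 fold change of 10.34 ± 0.20. Klf4, which drives late differentiation, had 1120, 734 and 675 CPM against 15.1, 14 and 16.1 CPM. Limb and dermal factors had the same direction. Tbx15 had 126, 167 and 192 CPM against 0.300, 0.280 and 0.517 CPM, Tbx4, the hind limb T-box factor, had 5.69, 7.10 and 9.54 CPM against 0.150, 0.140 and 0.172 CPM, and its forelimb relative Tbx5 had 17, 17 and 23 reads in paw and none in cord. Shox2, a limb factor, was not called, with 0.299, 1.23 and 0.530 CPM in paw and 1.00, 1.21 and 0.804 CPM in cord, but was called lower by a log2 fold change of -1.25 without paw replicate 2.

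Skin appendages gave smaller groups. Of 20 tested sweat gland genes 17 were higher in paw and 2 lower. Aqp5, the water channel of sweat secretory cells, had 276, 248 and 196 CPM in paw and 0.250, 0.327 and 0.746 CPM in cord, a log2 fold change of 9.11 ± 0.27. Foxi1, a factor of ion-transporting cells, had 144, 168 and 322 reads in paw and none in cord, at least 249-fold higher. The members lower in paw were Car2, a carbonic anhydrase also made by oligodendrocytes, and the chloride channel gene Cftr, which had 0 reads in paw and 63 in cord. Of 6 tested melanocyte genes 5 were higher in paw, yet all were low except Gpnmb, which macrophages also express. Tyrp1, a melanin enzyme, had 2.93, 2.65 and 3.71 CPM in paw and 0.150, 0.187 and 0.115 CPM in cord. Of 8 tested Merkel cell genes, the keratins Krt8 and Krt18 were higher in paw and 5 neuronal genes such as Chga and Rab3c were lower. Piezo2, listed as Fam38b, is the touch channel of Merkel cells and sensory neurons and was not called, with 6.23, 6.11 and 6.48 CPM in paw and 4.50, 5.41 and 9.41 CPM in cord.

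**Figure D2:**
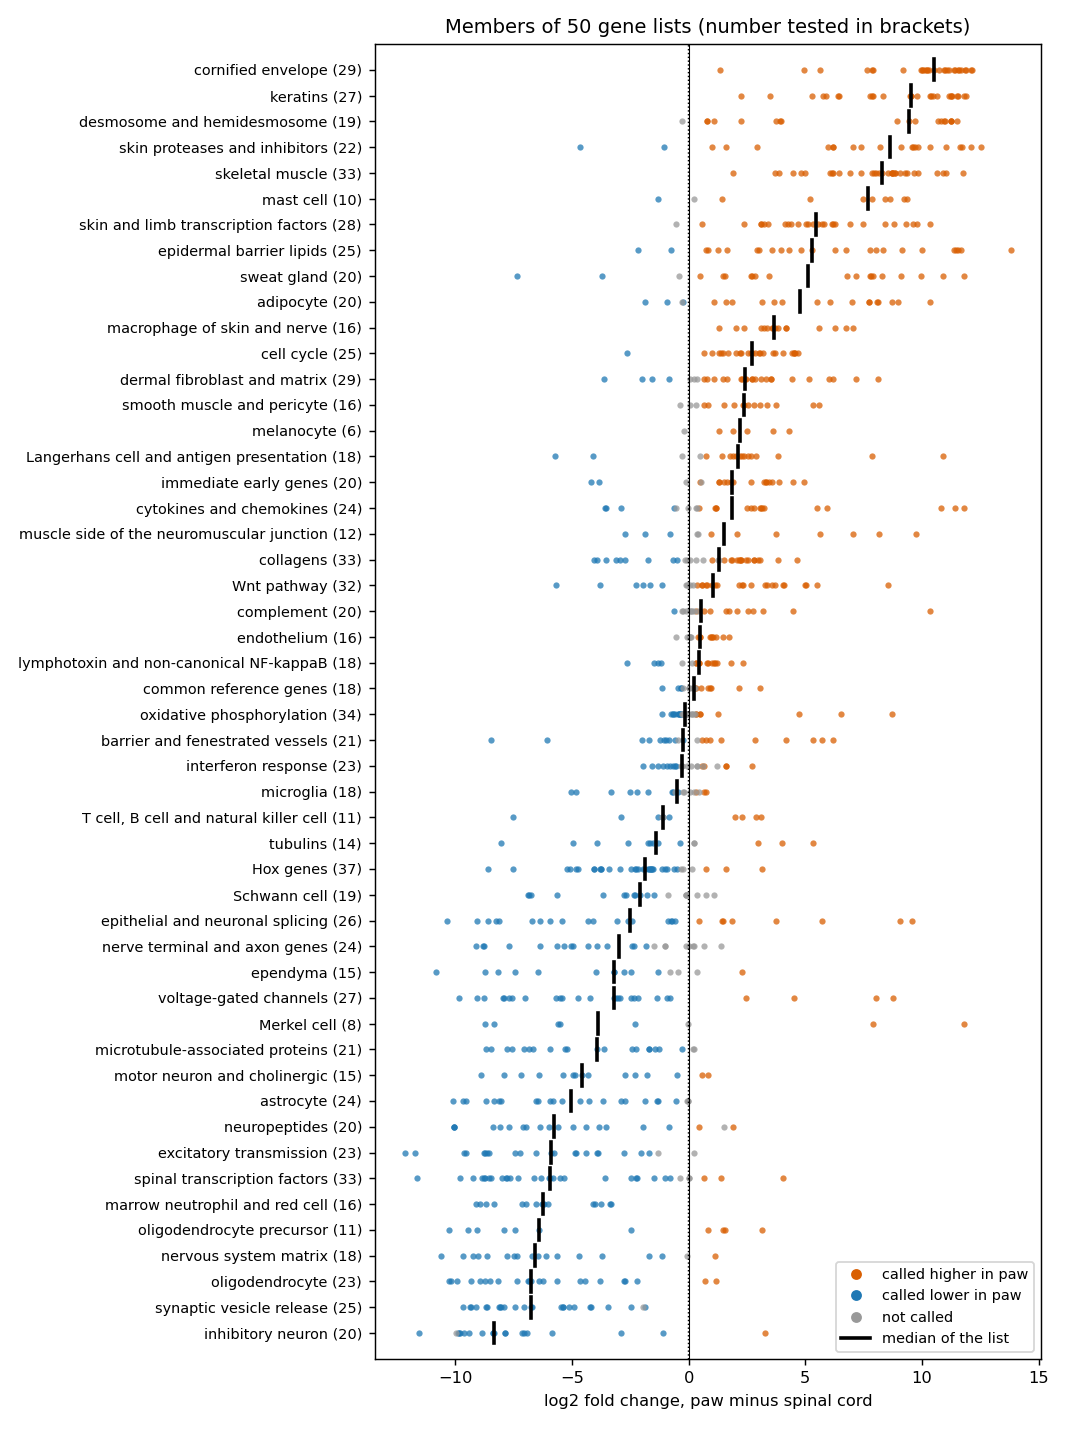
Log2 fold change (paw minus cord, x axis) of each tested member of 50 gene lists, ordered by list median (black bar), with members called higher in paw in orange, lower in blue and not called in grey. Fitted values of genes with 0 reads in one tissue depend on the model's prior and are not bounds. The cornified envelope and keratin lists lie at the top and inhibitory neuron genes at the bottom, while oxidative phosphorylation and common reference genes centre near 0.

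The dermal matrix separated less sharply than the epidermis. Of 33 tested collagens 17 were higher in paw and 9 lower, with a median log2 fold change of 1.31. Without cord replicates 1 and 3, a setting added after the data were seen, the counts were 23 and 5. Col3a1, of the fibrillar collagen of soft tissue, had 1463, 2043 and 1606 CPM in paw and 49.3, 38.4 and 115 CPM in cord, a log2 fold change of 4.66 ± 0.48 that became 5.31 without cord replicate 3. Col1a1 had 544, 751 and 557 CPM against 72.2, 46.7 and 145 CPM, and its log2 fold change of 2.81 became 3.41 without that library. Cord replicate 3, the library with the most peripheral myelin RNA, was the highest of the cord libraries for both. Col7a1, the anchoring fibril that holds epidermis to dermis, had 125, 150 and 109 CPM against 7.65, 8.96 and 10.2 CPM, a log2 fold change of 3.85 ± 0.16. The basement membrane chains Col4a1 and Col4a2, found around vessels in both tissues, were not called. Col4a1 had 178, 189 and 203 CPM in paw and 118, 92.5 and 246 CPM in cord, so the libraries overlapped. Without cord replicate 3 both were called higher in paw, with log2 fold changes of 0.89 for Col4a1 and 0.33 for Col4a2. Among the 9 collagens lower in paw, Col11a1 had 5.15, 7.41 and 6.83 CPM against 71.5, 71.2 and 82.6 CPM in cord, and Col9a3 had 1.56, 1.36 and 1.65 CPM against 28.0, 25.9 and 23.0 CPM.

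Other dermal fibroblast and matrix genes were higher in paw for 22 of 29 and lower for 4. Postn, a matricellular protein, had 208, 288 and 226 CPM in paw and 1.55, 1.26 and 2.30 CPM in cord, a log2 fold change of 7.16 ± 0.24. Fbn1, of elastic microfibrils, had 179, 282 and 315 CPM against 9.65, 11.6 and 15.2 CPM. Dcn, a collagen-binding proteoglycan, had 1518, 1723 and 1791 CPM against 160, 137 and 470 CPM, and its log2 fold change of 2.71 became 3.53 without cord replicate 3. Sparc, a collagen-binding protein that glia also secrete, was lower in paw with 785, 1042 and 864 CPM against 2420, 2825 and 2666 CPM. Thy1, used as a fibroblast marker and abundant on neurons, was also lower, with 56.5, 61.0 and 69.3 CPM against 786, 868 and 644 CPM.

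The cord has its own matrix, made of hyaluronan-bound proteoglycans and axonal adhesion proteins. Of 18 tested members 16 were lower in paw and 1, Vcan, was higher. Cntn2, an adhesion protein next to nodes of Ranvier, had 0.479, 0.617 and 0.766 CPM in paw and 324, 332 and 502 CPM in cord, a log2 fold change of -9.26 ± 0.28. Bcan, the proteoglycan brevican, had 0.239, 0.123 and 0.648 CPM against 561, 592 and 494 CPM, and its log2 fold change of -10.63 became -11.51 without paw replicate 3. Acan, the aggrecan of perineuronal nets and cartilage, had 1.02, 1.85 and 1.06 CPM against 32.7, 32.6 and 38.4 CPM. Vcan, versican, which both dermis and brain make, had 35.2, 57.0 and 53.2 CPM in paw and 20.2, 22.8 and 23.7 CPM in cord, a log2 fold change of 1.13 ± 0.19.

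Skeletal muscle RNA was abundant in the skin punches. All 33 tested muscle genes were higher in paw, with summed levels of 31091, 38892 and 42875 CPM in paw and 549, 518 and 431 CPM in cord and a median log2 fold change of 8.28. Without cord replicates 1 and 3, 30 of 33 were called higher. Neb, the ruler protein of thin filaments, had 1636, 2336 and 1840 CPM in paw and 1.20, 0.653 and 1.21 CPM in cord, a log2 fold change of 10.90 ± 0.97. Mb, myoglobin, had 1534, 2264 and 2404 CPM against 1.5, 1.45 and 0.861 CPM. Ckm, the muscle creatine kinase, had 1780, 1770 and 2367 CPM against 9.40, 1.96 and 1.61 CPM, and its log2 fold change of 8.82 became 10.12 without cord replicate 1. The muscle share of each punch was not recorded in the labels, and its part in the other paw results was not tested.

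Fibre types differed between the punches. Myh4, the fastest myosin heavy chain, had 2448, 443 and 925 CPM in paw, a range of more than 5-fold among replicates. Myh1 had 1767, 3149 and 3156 CPM and Myh2 467, 1629 and 1114 CPM, so that paw replicate 1 was highest for Myh4 and lowest for Myh1 and Myh2. Against 13.3, 1.49 and 1.55 CPM in cord, the log2 fold change of Myh4 was 7.86, with 6.96 without paw replicate 1 and 9.72 without cord replicate 1. Myh7, the slow and cardiac chain, had 116, 56.5 and 128 CPM in paw against 3.15, 5.18 and 2.35 CPM in cord. Slow troponin genes were lowest in paw replicate 1, with 93.9, 156 and 166 CPM for Tnnt1 and 67.6, 127 and 130 CPM for Tnni1. The muscle side of the neuromuscular junction was mixed, with 7 of 12 genes higher in paw and 3 lower. Chrne, the adult acetylcholine receptor subunit, had 13.1, 23.7 and 25.4 CPM in paw and 0.1, 0.233 and 0.115 CPM in cord. Chrnd, the delta subunit, had 57, 111 and 110 reads in paw and none in cord, at least 109-fold higher. Ache, acetylcholinesterase, was lower in paw with 28.3, 43.0 and 51.1 CPM against 283, 323 and 218 CPM.

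Vessel genes differed by kind. Of 16 general endothelial genes 10 were higher in paw, none was lower, and the median log2 fold change was 0.48. Pecam1, an endothelial junction protein, had 140, 154 and 156 CPM in paw and 40.8, 48.2 and 47.6 CPM in cord, a log2 fold change of 1.72 ± 0.10. Vwf, von Willebrand factor, was not called, with 100, 102 and 94.6 CPM in paw and 72.2, 77.3 and 141 CPM in cord. Without cord replicate 3 it was called higher in paw by a log2 fold change of 0.44. Genes of specialised vessels split both ways, 9 higher and 10 lower of 21. These shares were near the 39.9% and 41.7% of all genes, so the counts alone do not set this list apart. Slco1c1, the thyroid hormone transporter of the blood-brain barrier, had 0.0599, 0.309 and 0.294 CPM in paw and 76.3, 86.2 and 80.4 CPM in cord, a log2 fold change of -8.48 ± 0.28. Slc2a1, the barrier glucose transporter, had 121, 109 and 107 CPM against 254, 285 and 260 CPM. In the other direction, Plvap, the diaphragm protein of fenestrated capillaries, had 94.2, 122 and 120 CPM in paw and 15.5, 18.5 and 12.6 CPM in cord, a log2 fold change of 2.84 ± 0.15. Lyve1, of lymphatic vessels and some macrophages, had 32.1, 40.7 and 40.8 CPM against 1.80, 1.40 and 3.27 CPM. Mural genes were higher in paw for 13 of 16, led in level by smooth muscle actin, Acta2, with 607, 558 and 585 CPM against 51.4, 78.4 and 42.2 CPM.

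Fat cell genes were higher in paw for 16 of 20 and lower for 3. Cd36, a fatty acid receptor shared with macrophages and muscle, had 161, 156 and 188 CPM in paw and 2.90, 1.26 and 3.50 CPM in cord, a log2 fold change of 6.06 ± 0.32. Adipoq, adiponectin, had 56.9, 48.9 and 60 CPM against 1.05, 0.0933 and 0.115 CPM, and its log2 fold change of 7.00 became 9.0 without cord replicate 1. Lep, leptin, had 58, 54 and 53 reads in paw and none in cord, at least 64.9-fold higher. Lipid synthesis genes were shared with myelinating glia: Fasn, fatty acid synthase, was not called, with 424, 384 and 427 CPM in paw and 427, 433 and 656 CPM in cord, and Acly, which supplies acetyl-CoA, was lower in paw with 293, 248 and 273 CPM against 507, 506 and 556 CPM.

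Immune cell genes differed by list. All 16 genes of skin and nerve macrophages were higher in paw. Mrc1, the mannose receptor, had 48.2, 57.0 and 48.6 CPM in paw and 4.95, 4.06 and 7.4 CPM in cord, a log2 fold change of 3.24 ± 0.23, and Lyz1, a lysozyme, had 35.3, 39.3 and 35.8 CPM against 0.450, 0.280 and 0.287 CPM. Of 18 microglial genes 9 were lower and 3 higher in paw, with a median log2 fold change of -0.52, and 6 were lower by 2-fold or more. The shares lower in paw were not far from those of all genes. The shares higher in paw were smaller: none of the 18 was higher by 2-fold or more, against 26.2% of all genes. Sall1, the factor that sets microglial identity, had 1.32, 2.16 and 2.12 CPM in paw and 62.0, 50.9 and 75.3 CPM in cord, a log2 fold change of -5.07 ± 0.23, and Cx3cr1, the fractalkine receptor, had 1.5, 1.30 and 1.53 CPM against 40, 38.8 and 44.7 CPM. Csf1r, the growth factor receptor of both cell types, was not called, with 93.7, 102 and 92.3 CPM in paw and 113, 108 and 112 CPM in cord, but the libraries did not overlap and it was called lower with the 6 paw and cord libraries alone.

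Epidermal dendritic cells left a clear trace. Cd207, langerin, the defining lectin of Langerhans cells, had 193, 240 and 179 reads in paw and none in cord, at least 241-fold higher. Of 18 genes of Langerhans cells and antigen presentation 14 were higher in paw and 2 lower. H2-Ab1, an MHC class II chain, had 105, 113 and 96.8 CPM against 11.9, 10.8 and 20.3 CPM, a log2 fold change of 2.88 ± 0.20. Flt3, a dendritic cell growth factor receptor, was lower in paw, with 1.02, 0.617 and 0.530 CPM against 35.6, 42.5 and 37.1 CPM. Mast cell genes were higher in paw for 8 of 10 and lower for 1. Mcpt4, a connective tissue mast cell protease, had 20, 22.8 and 21.4 CPM against 0.05, 0.0933 and 0.115 CPM, a log2 fold change of 7.87 ± 0.27, and Mrgprb2, their itch and drug receptor, had 40, 34 and 38 reads in paw and none in cord. Hdc, which makes histamine, was lower in paw, with 2.39, 2.35 and 3.24 CPM against 9.65, 4.25 and 5.86 CPM. Lymphocyte genes were near the floor in both: of 21 genes, 11 were tested, and the CD3 chain genes Cd3d, Cd3e and Cd3g had 3 to 13 reads over a tissue.

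All 16 tested marrow neutrophil and red cell genes were lower in paw, and cord replicate 1 was highest for each of those named here. Ngp, a granule protein of young neutrophils, had 0, 0.185 and 0.353 CPM in paw and 180, 44.2 and 55.5 CPM in cord, and its log2 fold change of -8.96 became -8.04 without cord replicate 1 and -9.90 without paw replicate 3. Slc4a1, the anion exchanger of red cells, had 0.180, 0.123 and 0.236 CPM against 60.5, 4.15 and 6.66 CPM, and its log2 fold change of -6.99 became -4.83 without cord replicate 1. Without cord replicates 1 and 3, 15 of the 16 were still called lower. The source of these reads was not tested.

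Central myelin and its cells gave some of the largest levels in cord. Of 23 oligodendrocyte genes 21 were lower in paw and 2 higher, with a median log2 fold change of -6.74. Mbp, myelin basic protein, had 270, 270 and 313 CPM in paw and 13292, 16229 and 12868 CPM in cord, a log2 fold change of -5.64 ± 0.20. Ermn, a late oligodendrocyte cytoskeletal protein, had 0.239, 0.123 and 0.236 CPM against 242, 237 and 241 CPM, a log2 fold change of -10.18 ± 0.17. The 3 cord libraries agreed within 1.3-fold for both. Mbp, which Schwann cells also make, had more reads in paw than Ermn. Olig2, the lineage factor, had 2 reads in paw and 3447 in cord, a ratio of 1461 with an interval of 404 to 12070. Fa2h, the fatty acid hydroxylase of myelin and also of epidermis, was higher in paw with 364, 367 and 392 CPM against 223, 233 and 238 CPM.

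Schwann cell genes, peripheral myelin genes among them, were also mostly lower in paw. Of 19 tested Schwann cell genes 12 were lower in paw and none higher. The largest fall was in Fabp7, also a gene of central glia, with a log2 fold change of -6.89. The count therefore does not measure peripheral myelin alone. Prx had 112, 117 and 133 CPM in paw against the cord values given above, and its log2 fold change of -2.32 became -1.5 without cord replicate 3. Pmp22 had 420, 420 and 480 CPM against 760, 775 and 2207 CPM, with -1.5 becoming -0.77. Without cord replicate 3, 4 Schwann cell genes were called higher in paw, against none with it. The source of the peripheral myelin reads in cord was not tested. Ngfr, the low-affinity neurotrophin receptor of non-myelinating Schwann cells, was not called, with 7.18, 9.5 and 10.4 CPM in paw and 7.35, 7.98 and 14.4 CPM in cord.

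Astrocyte genes were lower in paw for 21 of 24 and higher for none. Slc1a2, the main glutamate transporter of astrocytes, had 3.83, 4.75 and 7.42 CPM in paw and 1720, 1841 and 1636 CPM in cord, a log2 fold change of -8.34 ± 0.24. Aqp4, the water channel of astrocyte endfeet, had 8.86, 5.0 and 7.77 CPM against 420, 392 and 407 CPM. Gfap, the astrocyte filament, had 1.02, 0.741 and 2.24 CPM against 1076, 1033 and 890 CPM, and its log2 fold change of -9.54 became -10.14 without paw replicate 3, the paw library with the most neural RNA. The gap junction genes Gja1 and Gjb6 link astrocytes in cord and keratinocytes in skin, and neither was called. Gja1 had 618, 456 and 467 CPM in paw and 558, 492 and 519 CPM in cord, and Gjb6 had 150, 128 and 112 CPM against 130, 143 and 121 CPM. Ependymal genes were lower in paw for 11 of 15 and higher for 1, or for 2 without cord replicate 3. The cilium gene Ccdc153 had 288, 200 and 219 reads in cord and none in paw, and Vim, the filament of ependyma and of dermal cells, was higher in paw with 935, 1101 and 1014 CPM against 172, 163 and 295 CPM.

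Inhibitory neurons of the dorsal horn use GABA and glycine to limit the flow of pain signals. Of 20 tested inhibitory genes 18 were lower in paw and 1 higher, with a median log2 fold change of -7.89 at the bound. Gad2, which makes GABA, had 0.180, 0.309 and 0.294 CPM in paw and 123, 128 and 120 CPM in cord, a log2 fold change of -8.85 ± 0.22. Glrb, the glycine receptor beta subunit, had 1.44, 1.36 and 2.30 CPM against 423, 427 and 368 CPM, a log2 fold change of -7.89 ± 0.18. Gad1 had 0.0599, 0.0617 and 0.648 CPM against 246, 245 and 227 CPM, and its log2 fold change of -9.81 became -11.80 without paw replicate 3. The exception was Pvalb, parvalbumin, a calcium buffer of some interneurons and of fast muscle, which was higher in paw with 752, 806 and 1199 CPM against 92.2, 120 and 74.1 CPM.

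Excitatory transmission genes were lower in paw for 21 of 23 and higher for none. Gria2, an AMPA receptor subunit, had 0.658, 0.494 and 0.942 CPM in paw and 124, 121 and 122 CPM in cord, a log2 fold change of -7.44 ± 0.16. Grin1, the shared NMDA receptor subunit, had 0.958, 0.617 and 1.88 CPM against 511, 505 and 482 CPM. Slc17a6, the vesicular glutamate transporter of cord neurons, had 0.359, 0.247 and 1.00 CPM against 220, 217 and 216 CPM, and its log2 fold change of -8.64 became -9.45 without paw replicate 3. Homer1, a scaffold found in synapses and muscle, was not called, with 17.3, 18 and 19.5 CPM in paw and 15.2, 15.8 and 16.4 CPM in cord, but was called higher by a log2 fold change of 0.27 without cord replicate 3. The vesicle release machinery was lower in paw for 24 of 25 genes, with a median log2 fold change of -6.78. Syt1, the calcium sensor of fast release, had 0.120, 0.185 and 0.177 CPM against 137, 125 and 147 CPM, a log2 fold change of -9.68 ± 0.23. Snap25, of the fusion complex, had 4.61, 3.52 and 8.66 CPM against 3708, 4159 and 3187 CPM, a log2 fold change of -9.36 ± 0.35. Syt2, the sensor of fast inhibitory and motor terminals, had 36.4, 33.1 and 309 CPM in cord, and its log2 fold change of -8.14 became -6.24 without cord replicate 3.

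Peptide and cholinergic genes had the same direction at lower levels. Of 20 neuropeptide genes 17 were lower in paw and 2 higher, or 1 higher in several alternatives, among them leaving out cord replicate 1, cord replicate 3, paw replicate 2 or paw replicate 3 and using the 6 paw and cord libraries alone. Penk, which encodes enkephalins, had 16.3, 16.9 and 19.3 CPM in paw and 209, 227 and 181 CPM in cord, a log2 fold change of -3.56 ± 0.13. Tac1, which encodes substance P, had 0.180, 0.185 and 0 CPM against 26.0, 30.7 and 22.9 CPM. Pdyn, which encodes dynorphin, had 149, 144 and 114 reads in cord and none in paw, at least 115-fold lower there. Nmu, neuromedin U, was higher in paw with 12.8, 14.1 and 11.9 CPM against 4.10, 4.11 and 2.07 CPM. Of 15 motor neuron and cholinergic genes 13 were lower and 2 higher in paw. Chat, which makes acetylcholine, had 0.239, 0.247 and 0.0589 CPM against 26.6, 29.7 and 26.5 CPM, and Prph, the filament of motor and sensory axons, had 2.69, 3.95 and 3.77 CPM against 66.2, 79.7 and 61.4 CPM.

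Nerve endings in the skin carry little of their neurons' RNA, whose cell bodies lie in the ganglia. Of 24 nerve terminal and axon genes 15 were lower in paw and none higher, with summed levels of 95.1, 90.4 and 110 CPM in paw and 6499, 7352 and 5715 CPM in cord. The filter for genes of few reads used all 9 libraries, so a gene nearly silent in paw and cord could be tested through the ganglion libraries. Of the 24, 1 had no read in either tissue and could not be called. Nefh, the heavy neurofilament, had 2.04, 1.42 and 3.36 CPM in paw and 1244, 1400 and 1124 CPM in cord, a log2 fold change of -9.10 ± 0.29. Gap43, of growing axons, had 1.20, 1.67 and 1.35 CPM against 114, 129 and 104 CPM. Calca, which encodes the peptide CGRP, had 0.539, 0.432 and 0.236 CPM against 10.1, 11.9 and 16.1 CPM. The capsaicin receptor gene Trpv1 had 0.239, 0.370 and 0.294 CPM in paw and 0.300, 0.140 and 0.574 CPM in cord and was not called, and Mrgpra3, an itch receptor gene, had no read in either. Ret, the receptor of glial-derived growth factors, was lower in paw with 14.5, 11.8 and 13.4 CPM against 144, 152 and 157 CPM.

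Most ion channel genes were lower in paw. Of 27 tested voltage-gated channel genes 23 were lower in paw and 4 higher. Scn8a, the sodium channel of nodes of Ranvier, had 1.38, 1.60 and 1.59 CPM in paw and 376, 375 and 381 CPM in cord, a log2 fold change of -7.95 ± 0.15. The muscle sodium channel Scn4a ran the other way, with 70.1, 99.2 and 106 CPM in paw and 0.250, 0.140 and 0.230 CPM in cord, a log2 fold change of 8.77 ± 0.25. Cacna1s, the voltage sensor of muscle contraction, had 191, 228 and 273 CPM against 0.550, 0.700 and 1.49 CPM. The members called higher in paw also held Kcnq1, an epithelial and heart channel, and Kcna2.

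Spinal cord transcription factors were lower in paw for 27 of 33 and higher for 3, with a median of -5.54 at the bound. Myt1l, a neuronal zinc finger factor, had 0.0599, 0.123 and 0.236 CPM in paw and 69.5, 69.1 and 66.7 CPM in cord, and its log2 fold change of -8.86 became -9.45 without paw replicate 3. Sox1, a neural progenitor factor, had 478, 452 and 326 reads in cord and none in paw, at least 355-fold lower there. Sox2, shared by neural progenitors, glia and Merkel cells, had 0.599, 1.54 and 1.24 CPM against 61.0, 48.3 and 46.8 CPM. Tcfap2b, a factor of neural crest, dorsal interneurons and skin, was higher in paw, with 117, 95.9 and 81.8 CPM against 6.25, 5.97 and 5.51 CPM, a log2 fold change of 4.05 ± 0.15. Lbx1, known in both dorsal horn and limb muscle precursors, was not called, with 4.79, 4.94 and 6.89 CPM in paw and 5.80, 5.18 and 5.63 CPM in cord.

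In several gene families different members were higher in the 2 tissues. Creatine kinase was Ckm in paw and Ckb in cord, where Ckb had 59.0, 58.3 and 55.4 CPM in paw and 1314, 1499 and 1035 CPM in cord, a log2 fold change of -4.48 ± 0.17. Enolase was muscle Eno3 against neuronal Eno2. Eno3 had 869, 968 and 1085 CPM in paw and 13.2, 11.7 and 10.6 CPM in cord, a log2 fold change of 6.36 ± 0.52, and Eno2 had 5.45, 7.41 and 9.60 CPM against 1599, 1670 and 1301 CPM, a log2 fold change of -7.67 ± 0.25. Eno1 had a single read over these libraries and cannot be read. Lactate dehydrogenase, which converts pyruvate and lactate, was mainly Ldha in paw, with 822, 712 and 744 CPM against 88.5, 88.8 and 80.6 CPM. Its partner Ldhb had 30.4, 35.7 and 40.9 CPM in paw and 444, 488 and 378 CPM in cord. The log2 fold changes were 3.14 ± 0.11 and -3.61 ± 0.14.

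Pores and junctions gave further pairs. Aqp3, the glycerol and water channel of epidermis, had 934, 645 and 660 CPM in paw and 0.300, 0.420 and 0.0574 CPM in cord, a log2 fold change of 11.39 ± 0.31, opposite to the fall of Aqp4 given above. Cldn11, the claudin of central myelin, had 1.20, 1.36 and 1.41 CPM in paw and 415, 406 and 324 CPM in cord, and Cldn4, an epithelial claudin, had 160, 131 and 134 CPM in paw and 2 reads in all in cord, a ratio of 4162 with an interval of 1152 to 34380. Both cord reads of Cldn4 were in cord replicate 1, and its fitted log2 fold change of 11.77 became 14.40 without it. Epithelial Cdh1, E-cadherin, had 358, 282 and 268 CPM against 10.4, 10.0 and 49.8 CPM in cord, and its log2 fold change of 3.70 became 4.92 without cord replicate 3, while neural Cdh2 was lower in paw by a log2 fold change of -3.59 ± 0.25. Among glucose transporters, insulin-responsive Slc2a4 was at 174, 222 and 254 CPM in paw and 18.6, 13.2 and 13.1 CPM in cord. Neuronal Slc2a3 was at 3.29, 3.27 and 3.53 CPM against 136, 123 and 129 CPM. Slc2a1, given above, was also lower in paw and was the most abundant of these transporters in cord. Carbonic anhydrase was Car3, of muscle and fat, and Car12 in paw, and Car2, of glia, in cord. Car12 had 479, 409 and 380 CPM in paw and 3.80, 4.39 and 3.21 CPM in cord, and Car2 had 43.1, 30.4 and 35.4 CPM against 518, 494 and 434 CPM.

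**Figure D3:**
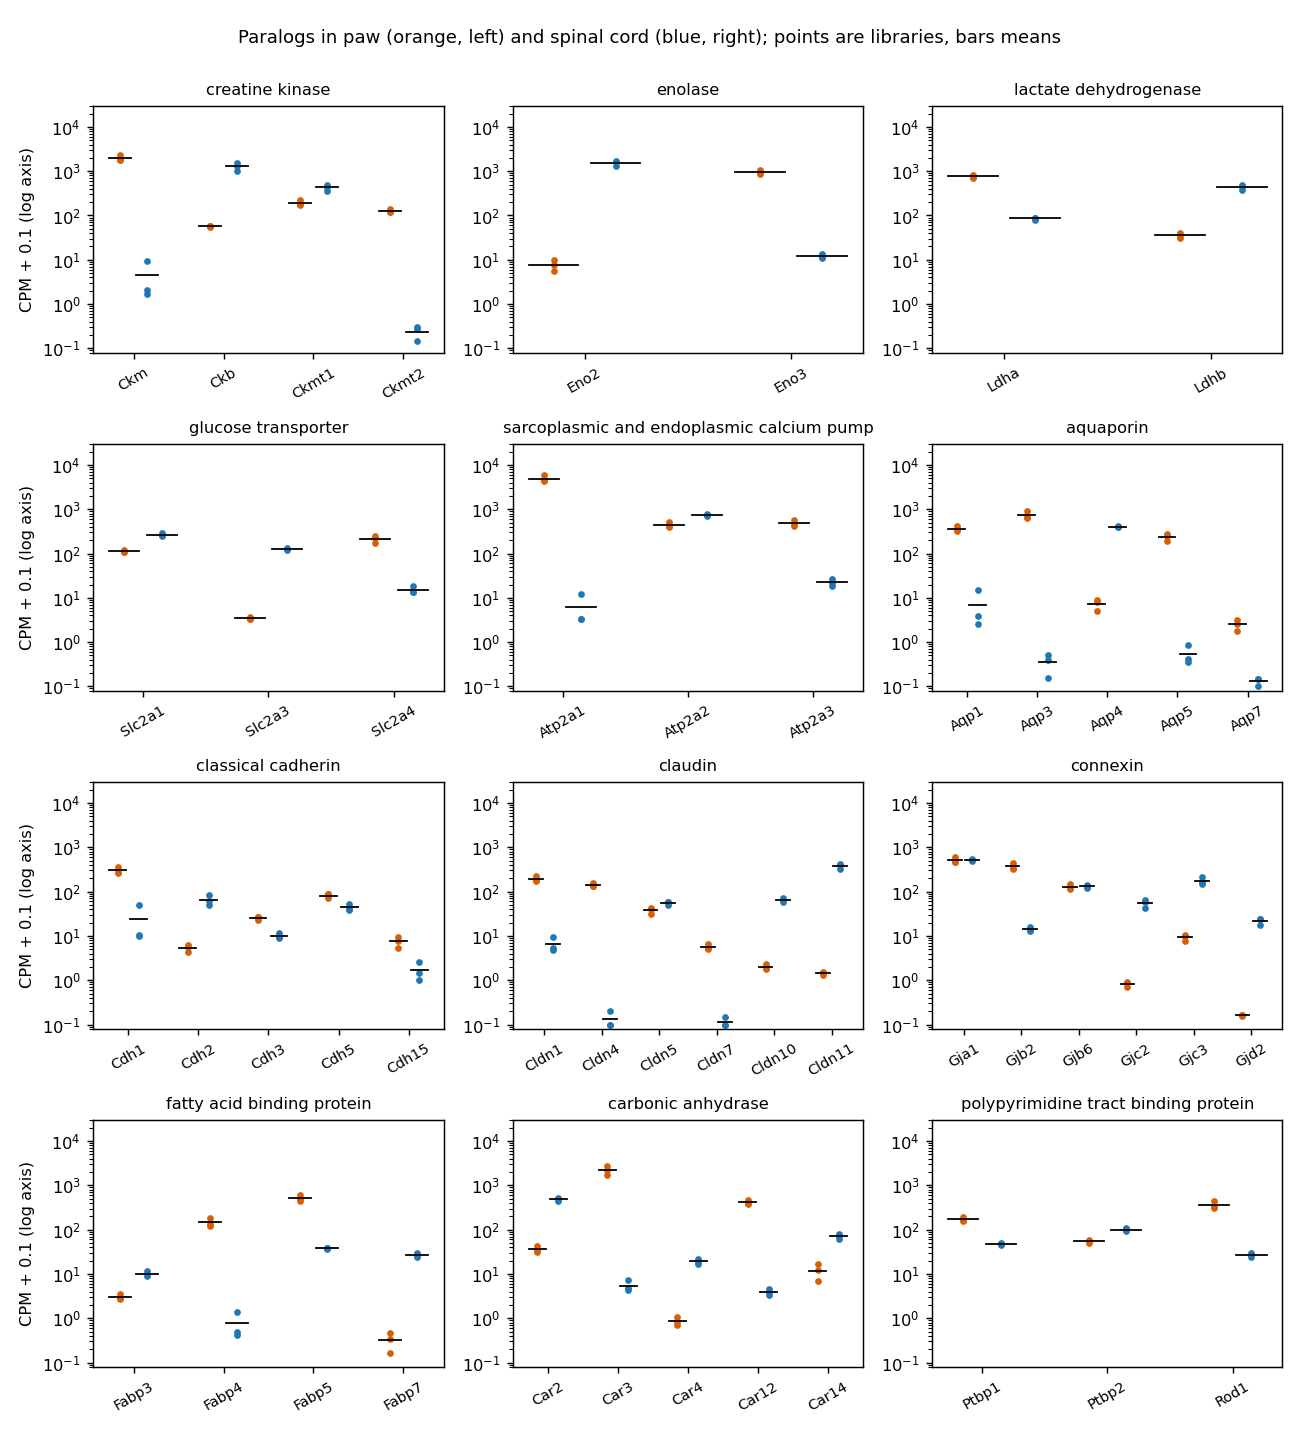
Levels of paralogous genes in 12 families, in CPM + 0.1 on log axes, with each point 1 library, paw in orange on the left, spinal cord in blue on the right and bars at the mean of 3 libraries. In creatine kinase, enolase, lactate dehydrogenase and glucose transporters the paw and cord points change places between some members, while Gja1 and Gjb6 overlap.

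Splicing regulators differed in both directions. Of 26 tested genes 8 were higher and 18 lower in paw. Esrp1, the epithelial splicing factor, had 675, 643 and 436 CPM in paw and 1.00, 1.31 and 0.976 CPM in cord, a log2 fold change of 9.04 ± 0.23. Rbfox3, the NeuN antigen of mature neurons, had 0.539, 0.432 and 0.883 CPM against 259, 270 and 198 CPM, a log2 fold change of -8.59 ± 0.27. The polypyrimidine tract binding proteins, whose neuronal form replaces the general one as neurons mature, differed in direction. Ptbp1, the general form, had 194, 167 and 161 CPM in paw and 50.8, 45.6 and 48.4 CPM in cord, and neuronal Ptbp2 had 54.5, 58.8 and 49.2 CPM against 101, 107 and 94.0 CPM. Their log2 fold changes were 1.85 ± 0.12 and -0.89 ± 0.09. Ptbp3, listed as Rod1, was higher in paw with 450, 346 and 302 CPM against 30.1, 24.1 and 27.3 CPM, a log2 fold change of 3.75 ± 0.16. Microtubule genes, whose products paclitaxel binds, also differed between the tissues. Of 14 tubulins 3 were higher and 9 lower in paw. The beta-tubulin Tubb4a, listed as Tubb4, had 4.19, 4.63 and 8.42 CPM in paw and 1622, 1721 and 1219 CPM in cord, a log2 fold change of -8.04 ± 0.32, and neuronal Tubb3 had 40.5, 29.3 and 40.8 CPM against 565, 645 and 465 CPM. Tubb4b, listed as Tubb2c, and Tuba4a were not called. Tubb6 was higher in paw, with 29.9, 32.1 and 33.9 CPM against 3.05, 3.64 and 5.80 CPM. Tubulins are alike in sequence, so reads lost to several matches make their counts uncertain. Microtubule-associated genes were lower in paw for 19 of 21 and higher for none, with Kif5b, the general kinesin, not called at 274, 224 and 208 CPM in paw and 198, 214 and 212 CPM in cord.

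Hox genes record position along the body and along the limb, and both tissues come from the hind part of the animal. Of 37 tested, 31 were lower in paw and 3 higher, with a median log2 fold change of -1.86. Hoxb8 had 0.718, 0.864 and 2.18 CPM in paw and 256, 259 and 197 CPM in cord, and its log2 fold change of -7.55 became -8.22 without paw replicate 3. Every tested gene of the Hoxb cluster, 9 in all, was lower in paw. Hoxd13, which patterns the digits, went the other way with 12.9, 12.5 and 11.1 CPM in paw and 1.75, 1.54 and 0.746 CPM in cord, a log2 fold change of 3.15 ± 0.27. Hoxa13, its partner in the distal limb, had 3.95, 7.41 and 7.83 CPM against 2.80, 1.12 and 2.41 CPM, a log2 fold change of 1.61 ± 0.38, and Hoxa9 had 55.4, 45.7 and 37.2 CPM against 27.9, 30.7 and 25.4 CPM. Hoxd11, of the same cluster as Hoxd13, was lower in paw, with 0.180, 0.432 and 0.412 CPM against 8.30, 10.5 and 9.53 CPM. Hoxb13, of the tail end of the body, had 2 reads in paw and 1054 in cord, a ratio of 447 with an interval of 123 to 3694. Both paw reads of Hoxb13 were in paw replicate 3, and its fitted log2 fold change of -8.60 became -11.46 without it. Hoxa11, Hoxc9 and Hoxc11 were not called: Hoxc9 had 5.09, 6.05 and 5.24 CPM in paw and 4.50, 5.27 and 5.17 CPM in cord. Several neighbouring Hox genes overlap or have antisense transcripts, and without a stated strand setting their reads cannot be told apart.

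**Figure D4:**
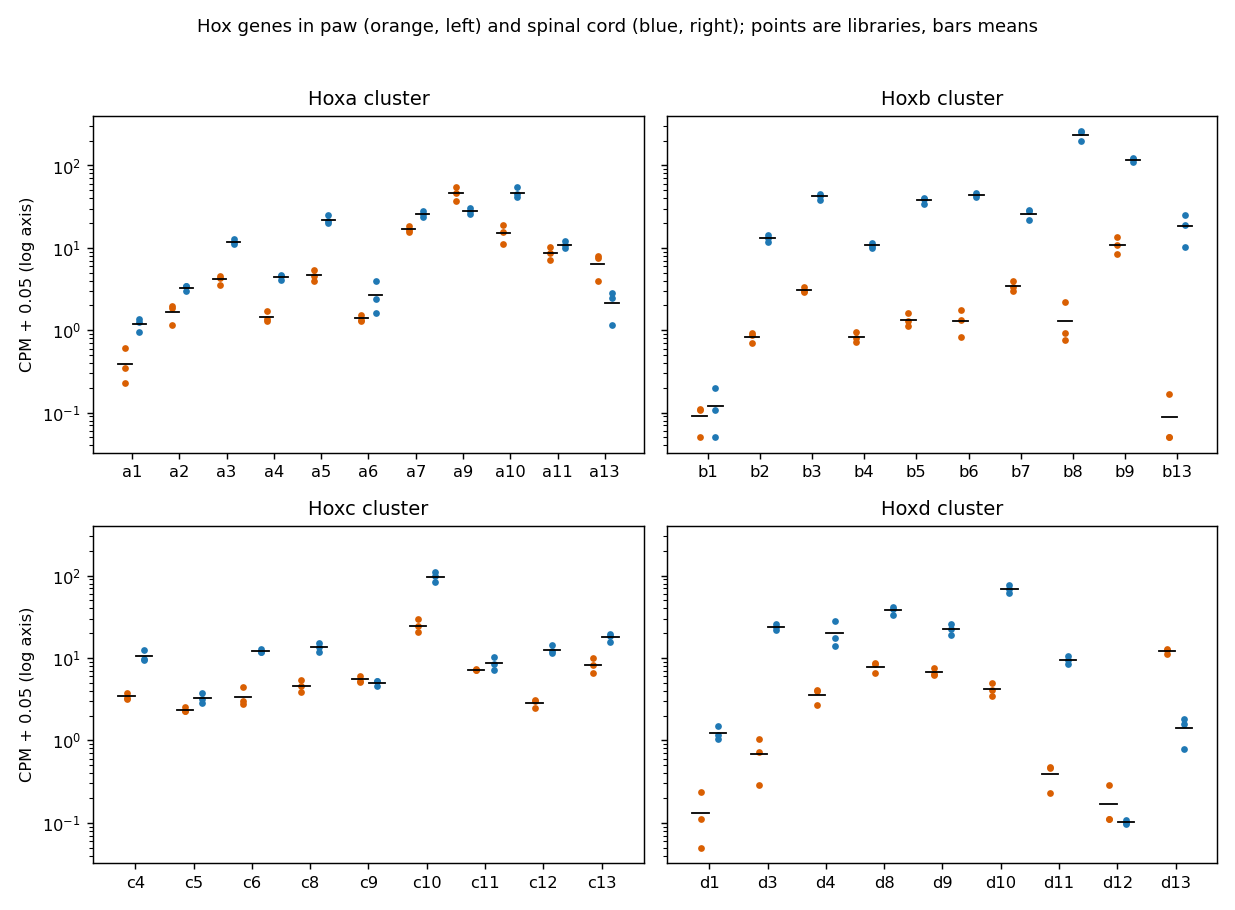
Level of each Hox gene in CPM + 0.05 on log axes, by cluster and in order of number, with each point 1 library, paw in orange on the left, spinal cord in blue on the right and bars at the mean of 3 libraries. Nearly all genes are higher in cord, the Hoxb cluster the most, and Hoxd13, Hoxa13 and Hoxa9 are higher in paw.

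Of 18 genes of the lymphotoxin and non-canonical NF-kappaB pathway, the pathway of the antagonist's target, 12 were higher and 4 lower in paw, with a median log2 fold change of 0.44. Birc3, a survival gene induced by NF-kappaB, had 15.5, 15.7 and 14.7 CPM in paw and 3.15, 2.47 and 3.67 CPM in cord, a log2 fold change of 2.31 ± 0.16. Vcam1, an adhesion molecule, was lower in paw with 4.79, 6.73 and 6.42 CPM against 38.9, 35.4 and 37.6 CPM. Cytokine genes were higher in paw for 16 of 24 and lower for 4. The epidermal interleukin-1 relatives stood out in level, with Il1f6 at 85.6, 87.5 and 76.7 CPM in paw and a single read in cord, a ratio of 4895 with an interval of 878 to 193400. The read was in cord replicate 3, and the fitted log2 fold change of Il1f6, 11.79, became 13.67 without it. Il1f5 had 261, 257 and 252 CPM against 0, 0.280 and 0.115 CPM, and its log2 fold change of 10.82 became 12.08 without cord replicate 2. The alarmin Il33 was lower in paw, with 11.4, 11.8 and 14.5 CPM against 150, 173 and 137 CPM, as was fractalkine, Cx3cl1, with 34.6, 32.4 and 31.6 CPM against 414, 398 and 356 CPM. Interferon response genes moved both ways, 5 higher and 9 lower of 23, and 9 were called higher without cord replicate 3. Ifitm2 had 76.8, 80.7 and 91.4 CPM in paw and 11.5, 11.1 and 15.7 CPM in cord, and Oasl2 had 2.16, 3.15 and 3.12 CPM against 9.20, 9.33 and 14.5 CPM. Complement genes were higher in paw for 11 of 20 and lower for 1, or for 3 without cord replicate 2, with factor D, Cfd, also made by fat cells, at 178, 168 and 150 CPM in paw and 0.150, 0 and 0.230 CPM in cord.

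Cell cycle genes were mostly higher in paw. Basal keratinocytes divide to renew the epidermis, but which cells gave these reads was not tested. Of 25 tested genes 24 were higher in paw and 1 lower. Mcm6, of the replication helicase, had 50.9, 45.3 and 50.6 CPM in paw and 12.2, 8.86 and 10.7 CPM in cord, a log2 fold change of 2.21 ± 0.12. Mki67, the Ki-67 antigen, had 178, 158 and 157 CPM against 17.3, 1.49 and 2.53 CPM, a log2 fold change of 4.52. Without cord replicate 1, the cord library highest in marrow neutrophil and red cell genes, it became 6.39. The source of the Mki67 reads in that library was not tested. Immediate early genes, which both keratinocytes and active neurons can induce within minutes, were higher in paw for 16 of 20 and lower for 2. Fosb had 106, 76.9 and 54.1 CPM in paw and 3.65, 4.01 and 2.87 CPM in cord, a log2 fold change of 4.48 ± 0.27. The 2 lower in paw were the neuronal genes Arc, with 1.56, 1.91 and 4.24 CPM against 49.9, 48.2 and 41.7 CPM, and Npas4. Of 32 Wnt pathway genes 22 were higher and 6 lower in paw. Wnt4 had 148, 124 and 111 CPM against 9.81, 10.6 and 11.9 CPM, and the inhibitor Wif1 had 53.3, 68.1 and 59.4 CPM against 1.55, 1.03 and 1.44 CPM, while Wnt7a was lower in paw with 0.299, 0.309 and 0.294 CPM against 18.2, 16.3 and 13.7 CPM. The target Axin2 was not called, with 26.9, 27.0 and 28.0 CPM in paw and 24.2, 22.0 and 26.2 CPM in cord, but was called higher by a log2 fold change of 0.28 without cord replicate 3.

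Genes of basic metabolism differed less. Of 34 nuclear oxidative phosphorylation genes 8 were higher and 11 lower in paw, and 4 of the former and 1 of the latter changed by 2-fold or more. Without cord replicates 1 and 3 the counts were 5 and 13. Ndufv2, of complex I, had 161, 176 and 193 CPM in paw and 172, 203 and 161 CPM in cord, a log2 fold change of -0.01 ± 0.11. Large differences were in muscle forms of complex IV subunits: Cox7a1 had 42.6, 45.1 and 54.9 CPM in paw and 1.25, 2.01 and 2.07 CPM in cord, and Cox8b had 43.9, 50.7 and 65.9 CPM against 0.750, 0.560 and 0.402 CPM. Of 18 common reference genes 8 were higher and 4 lower in paw, or 2 lower without paw replicate 2. Tbp had 21.4, 21.6 and 18.6 CPM in paw and 22.7, 20.8 and 17.8 CPM in cord, a log2 fold change of 0.01 ± 0.12. Rplp0, by contrast, had 863, 737 and 695 CPM against 87.1, 93.6 and 94.8 CPM, a log2 fold change of 3.06 ± 0.11, though ribosomal protein genes have many pseudogene copies and their counts are uncertain. Of all tested genes, 306 had at least 100 CPM in both tissues and were not called. The most even among these included Crk, an adaptor of growth factor signalling, with 154, 144 and 153 CPM in paw and 154, 144 and 154 CPM in cord, and Cttn, cortactin, with 151, 127 and 122 CPM against 131, 132 and 138 CPM.

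Genes that differed in one direction also lay side by side on chromosomes. Among 15989 tested genes placed in order on GRCm38.p6, 58 runs of 5 or more consecutive genes were all called at least 2-fold higher in paw and 54 runs at least 2-fold lower. Of all tested genes 26.2% were called 2-fold higher and 28.2% 2-fold lower, so some short runs would arise in any gene order. The number to be expected was not computed. The longest was the epidermal differentiation complex on chromosome 3, 37 genes from Pglyrp4 to S100a10, with a median log2 fold change of 10.96 at the bound. It holds Lor, the Lce and Sprr families and Hrnr. The last gene, S100a10, a widely expressed annexin partner, was at 259, 283 and 300 CPM in paw and 34.4, 36.0 and 36.7 CPM in cord. The type I keratin cluster on chromosome 11 gave a run of 26 genes from Krt24 to Krt42, and the type II cluster on chromosome 15 a run of 13 from Krt75 to Krt18. Serpins from Kdsr to Serpinb8 on chromosome 1 (13 genes), a run with the Skint genes on chromosome 4 (10 genes) and the kallikreins from Klk14 to Klk7 on chromosome 7 (8 genes) were further runs higher in paw. The Skint genes encode butyrophilin-like proteins of epidermis, and Skint4 had 276, 253 and 295 reads in paw and none in cord, at least 324-fold higher.

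The longest runs lower in paw were clustered protocadherins, neuronal surface proteins that give each cell its own label. The gamma cluster run held 21 genes from Pcdhga1 to Pcdhgc5, with a median log2 fold change of -2.48, and a run of the alpha and beta clusters held 14 genes with a median of -4.28 at the bound. Pcdhgc4 had 0.958, 0.987 and 0.648 CPM in paw and 29.3, 25 and 33.6 CPM in cord, while Pcdhgc3 had 27.2, 32.9 and 31.2 CPM against 68.3, 52.5 and 76.4 CPM. Genes of a protocadherin cluster share their last exons, so reads there cannot be assigned to 1 member and these counts are uncertain. The imprinted genes Dlk1 and Meg3 lay in a run of 11 genes lower in paw on chromosome 12, from Wars to Mir3072, with the long noncoding RNA Meg3 at 27.7, 31.5 and 30.6 CPM in paw and 2770, 2739 and 4087 CPM in cord. The Hoxb cluster gave a run of 9 genes from Hoxb9 to Skap1.

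**Figure D5:**
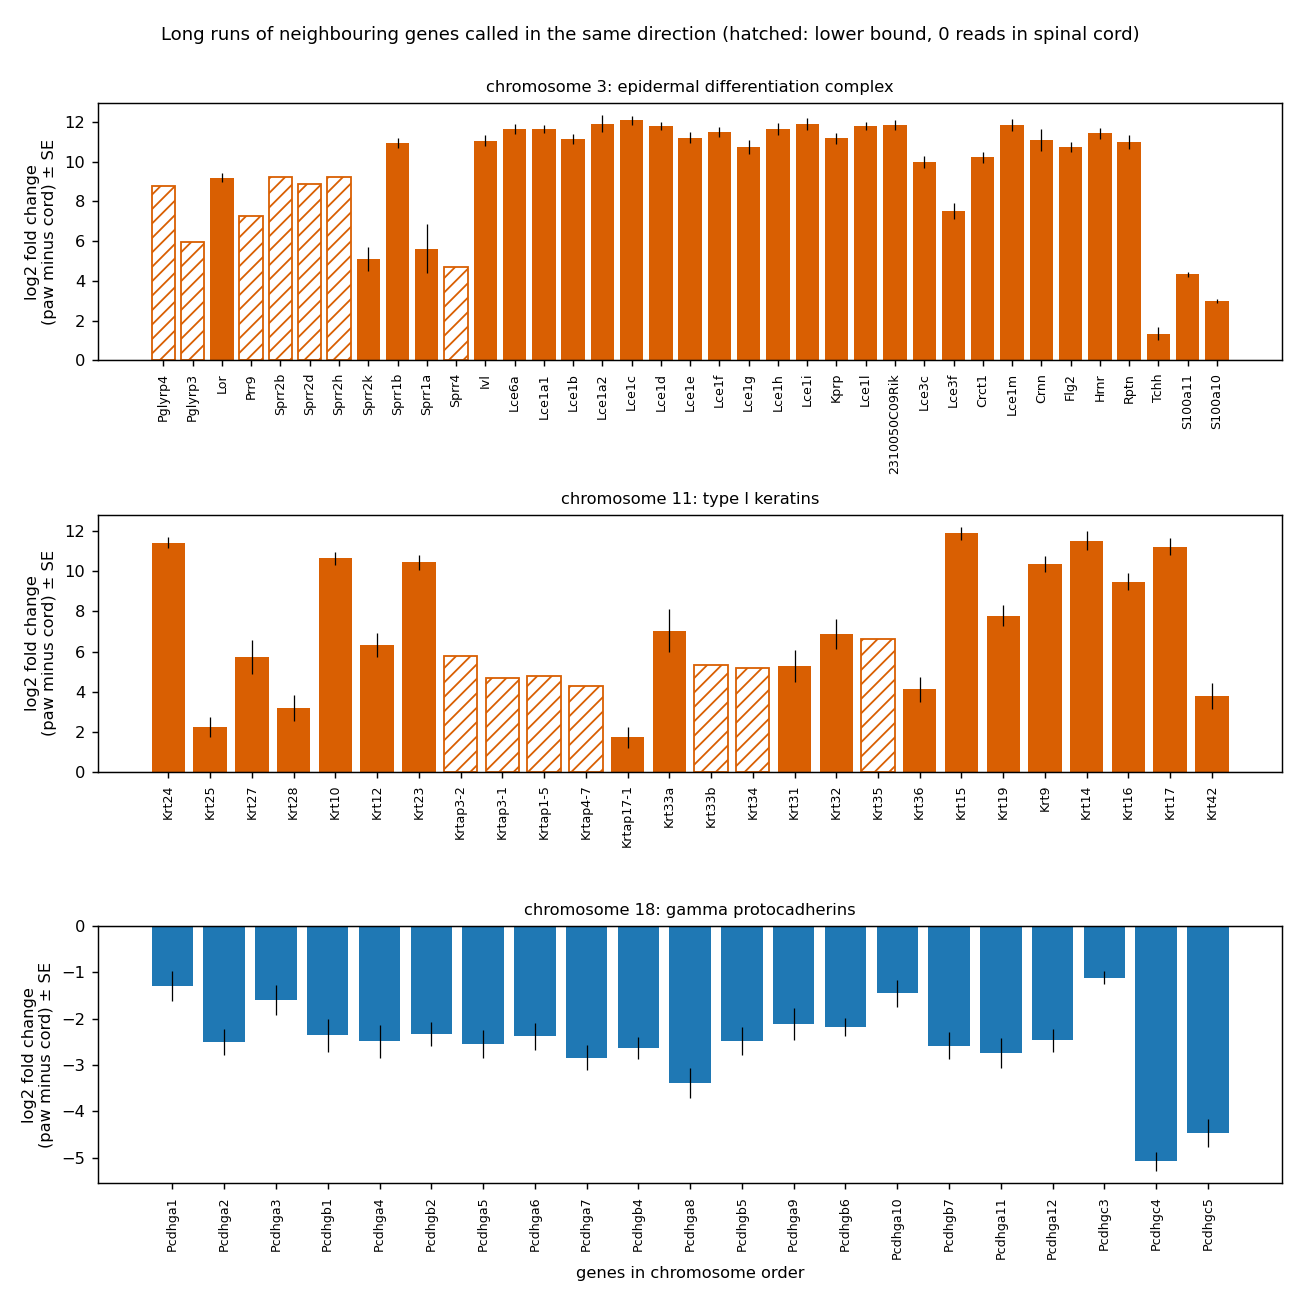
Log2 fold change (paw minus cord, bars ± SE) of each gene of 3 long runs of neighbouring genes, in chromosome order: 37 genes of chromosome 3, 26 genes of chromosome 11 and 21 genes of chromosome 18. Hatched bars are lower bounds for genes with 0 reads in spinal cord, and all bars of a run point the same way, with the smallest of the first run at Tchh.

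Finally, reads of some genes came from a single tissue of the pair. There were 844 genes with reads in paw and none in cord, 184 of them with 30 reads or more, and 864 with reads in cord and none in paw, 197 of them with 30 or more. A further 3822 genes had no read in either. The highest in paw was 2310033E01Rik, with 127, 108 and 103 CPM, at least 2211-fold higher than cord at 3 reads. Next came Pnpla1, then the noncoding RNA Nctc1 with 827, 1124 and 1157 reads. Gm13177 with 1114, 956 and 870 reads and Tmem30b, a lipid flippase subunit, with 1110, 846 and 927 reads followed. The highest in cord was Dao, the D-amino acid oxidase of astrocytes, with 894, 904 and 708 reads, at least 708-fold lower in paw. It was followed by the synaptic adhesion gene Lrfn5 with 692, 693 and 564 reads, the metabotropic glutamate receptor gene Grm3 with 623, 616 and 526 reads, at least 499-fold lower in paw, and Klhl1 with 510, 516 and 438 reads. Cord had no reads of the epidermal defensin gene Defb6, which had 905, 818 and 905 reads in paw, and paw had none of the serotonin receptor gene Htr1a, which had 372, 411 and 346 reads in cord. A count of 0 allows up to 3 reads, which is 0.139 to 0.193 CPM in 1 library.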

How the data were processed

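Per the labels, poly(A) RNA (about 500 ng) was made into stranded mRNA libraries and read as 50-base single ends. The submitters' processing notes name bcl2fastq, TopHat2, HTSeq and the mm9 build. Versions, strand setting and gene models: not given in the sources used here. The authors deposited raw read counts per gene, 1 file a library, and the 5 summary rows were left out. Reads matching several places were not counted in genes, so gene copies are undercounted. Depth was 15537545 to 21540977 reads in genes in the paw and cord libraries.

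Groups followed the tissue labels. Counts of all 9 libraries were fitted with edgeR 4.0.16 in R 4.3.3 (expression filter, TMM scaling, robust quasi-likelihood test, Benjamini-Hochberg adjustment, 6 residual degrees of freedom), after the code was tested on simulated counts. CPM are counts divided by TMM-scaled library size. Alternatives used limma 3.58.1, DESeq2 1.42.0, other scalings, no filter, a replicate block and left-out libraries. The members and lists were chosen with earlier results of these data known. Named genes were, per list, the 3 called members that changed most in its prevailing direction, plus 1 called in the opposite direction and 1 not called, each the highest in level, with the largest changes of all genes, the most abundant, single-tissue, most even and most variable genes, family members and the longest runs. Other genes named were chosen from the lists after their values were seen. Ratios for genes of 1 to 3 reads have exact intervals. Some genes are not reported here.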

Additional observations from a re-analysis of the deposited data

How the results depend on the processing

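The 13127 calls stayed within 1.5 times in every other fit counted (the 6 libraries alone, other scalings and tools, no filter, the replicate block and left-out libraries), with 6125 to 6731 genes higher in paw and 6238 to 7017 lower. Leaving out 1 library gave 6251 to 6638 higher and 6394 to 6698 lower, and without cord replicates 1 and 3, chosen after seeing the data, 6125 and 6238. Runs of neighbouring genes rose from 58 to 169 higher and from 54 to 178 lower when a call of any size was taken, since more genes then qualify. The share of TATAAA promoters among genes higher in paw was 6.42% at 4-fold in place of 4.41% at 2-fold. Cd79b, a B cell gene, was the 1 reversal. Its log2 fold change of -2.92 became -1.37 without cord replicate 1, where Cd79b was no longer called (edgeR adjusted p 0.176). Without cord replicates 1 and 3 it became 0.77, and the cause was not tested. Of 1067 called genes followed, 992 kept their call in every fit listed above in which they were tested. A gene that the filter of a fit removed was not counted as lost there. Among genes named above, Slc4a1 and Syt2 lost their call with limma-voom (adjusted p 0.0926 and 0.103), Krt25, Myh7, Hdc and Pcdhga1 without cord replicates 1 and 3, and Dst, Tubb2c and Kif5b gained one in 1 or 2 alternatives.

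Same-numbered paw and cord libraries did not deviate together (r of -0.000826, -0.0126 and -0.0649), and the numbers were not taken as pairs. Deviations from a mean of 3 libraries cannot show whether same-numbered samples came from the same mouse. The fit with the replicate number as a block called 6404 higher and 6670 lower. Precision is limited by 3 libraries a tissue, by reads lost to multiple matches, and for low genes by a floor of 3 reads.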
